A study of Mus musculus with 12 samples.

Results

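The comparison described here sets tumour-specific CD8 T cells from mice given anti-CTLA-4 together with anti-PD-1 DANA (the group Combo) against the same kind of cells from mice given an isotype control antibody (the group Isotype). Its members are all genes with a fold change in the authors' deposited table of that comparison, 17833 of 48709 listed genes. It uses 6 of the 12 libraries of the series, 3 of Combo and 3 of Isotype; the remaining groups received anti-CTLA-4 or anti-PD-1 DANA alone. All mice were wild type C57BL/6 at postnatal day 91 that carried TRAMP-C2, a transplantable line derived from a mouse prostate tumour. Antibodies were given on days 3, 6 and 9 by the sample labels, or 3, 6 and 8 by the series text, and draining lymph nodes were taken on day 28, counted from treatment in the former and from tumour injection in the latter. The sorted cells were live, CD45+, CD3+, CD8+, and positive for Spas-1 but negative for Spas-2, that is, T cells that recognise a tumour antigen. Cells of 5 mice were pooled in each arm and split in triplicate, so each arm is 1 pool. In such bulk RNA, fewer cells of a type and less RNA per cell cannot be told apart. The p-values cover no more than the spread between splits of a pool, and the arm and its pool cannot be told apart.

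CTLA-4 and PD-1 are inhibitory receptors of T cells. CTLA-4 competes with the costimulatory receptor CD28 for ligands on antigen-presenting cells, and PD-1 dampens signalling from the T cell receptor when it meets its own ligands. The DANA form of an antibody carries a mutated Fc part that Fc receptors no longer bind. Antigen-experienced CD8 T cells kill through perforin and granzymes and secrete interferon-gamma, which acts through its receptor and JAK kinases on genes such as Irf1. The title of the series links interferon-gamma, loss of tumour-specific T cells and failure of the antibody combination, and the comparison of Combo with Isotype reads the RNA of such cells after that combination.

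The table gives, for each gene, the larger of the 2 group means in RPKM, a log2 fold change, a p-value and its Benjamini-Hochberg false discovery rate (FDR) over all listed genes. A gene was called where the FDR was under 0.05. Standard errors, given after ±, are those implied by the authors' p-value under a Wald test. The 3 tables of the series share the Isotype libraries, and the mean of Isotype can be no larger than the smallest of their 3 listed means for a gene, which gives an upper limit where Combo was the larger group. Low means are sums of whole reads, so the depth of each library could be recovered: 24594651, 31993868 and 42556869 reads for Combo libraries A, B and C, and 23973359, 24512669 and 32867235 for Isotype libraries A, B and C. The letters order libraries by depth and cannot be tied to replicate numbers. RNA of CD8 T cells was abundant, with Cd8b1 at 345, Trac at 322, Cd3e at 133 and Cd8a at 81.8 RPKM in Isotype by the authors' deposited table. None of 11 CD8 T cell markers was called, whereas 1 was called higher with the median tested gene moved to 0 and 2 with genes of 5 RPKM or more at 0. Cd4, which marks helper T cells, was at 0.0053 RPKM in its larger group, Combo, from 2 reads.

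Combo and Isotype differed by 1343 called genes (7.53% of those tested) in the authors' deposited table, 703 higher in Combo (3.94%) and 640 lower (3.59%). Most called changes were very large and imprecise: the median absolute log2 fold change was 7.17 and the median standard error 1.83. Their number depended on the level of expression. Among 6874 genes with a larger mean above 0 and up to 1 RPKM, 46 were called, and none was called among 2282 with a mean of 0 in both groups. From 1 to 3 RPKM 67.6% of 272 called genes were higher in Combo, whereas from 30 to 100 RPKM 24.6% of 65 were, and above 100 RPKM 16.7% of 24. The plot of level against fold change shows called genes of low and middle level in bands far from 0. At the right, the called abundant genes lie mostly lower in Combo. All 278 tested genes above 100 RPKM had a median log2 fold change of 0.17. Of the 20 called lower there, 10 were mitochondrially encoded.

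On the authors' scale the log2 fold change of the median tested gene was -0.42 and that of the median gene of 5 RPKM or more -0.71. The first of these falls on genes without reads. The 2282 tested genes with a mean of 0 in both groups also had a median of -0.42, and 1032 of them lay within 0.001 of the median tested gene. Tested genes with a mean above 0 had a median of -0.053. With the median tested gene moved to 0, 66.2% of 1439 called genes were higher in Combo. With the genes of 5 RPKM or more at 0, 74.0% of 1571 were, against 52.3% of 1343 on the authors' scale. Among called genes with a standard error under 1, 10 of 70 were higher on the authors' scale, 48 of 79 with the median tested gene at 0 and 92 of 112 with genes of 5 RPKM or more at 0. A direction is therefore given below relative to the medians of -0.42 and -0.71 where they decide it. Counts of called genes in the lists below stand against 3.94% called higher and 3.59% called lower over all tested genes.

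**Figure D1:**
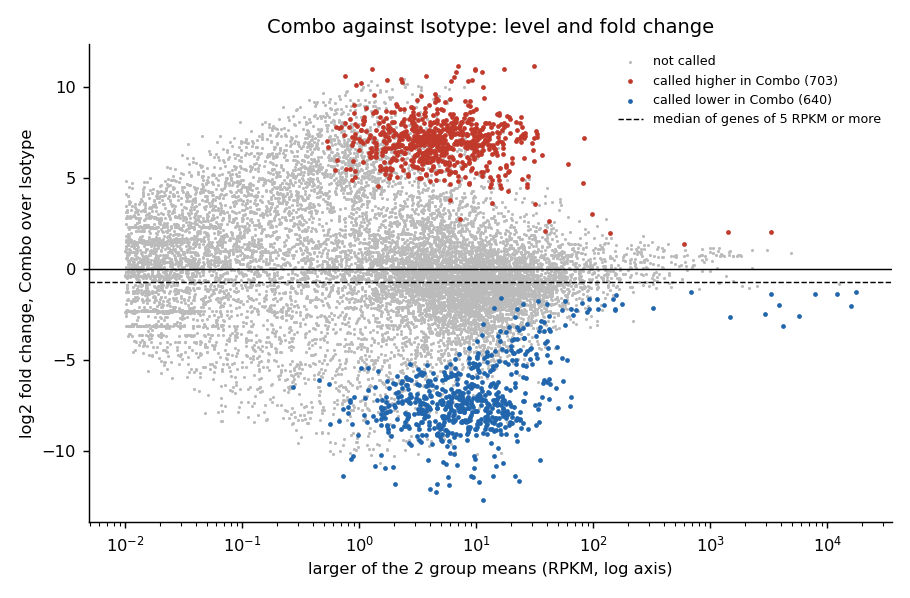
Larger of the 2 group means (RPKM, log axis, genes of 0.01 RPKM or more) against the authors' log2 fold change of Combo over Isotype, 1 point per tested gene. Red points are the 703 genes called higher and blue points the 640 called lower; the dashed line at -0.71 is the median of genes of 5 RPKM or more.

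Where whole reads could be recovered, which left out genes with many reads, many called genes owed their level to a single library. Of 272 genes called higher with known reads, 177 (65.1%) had 80% or more of the Combo mean from 1 library, spread over libraries A, B and C as 60, 53 and 64 genes. Of 234 called lower, 197 (84.2%) had 80% or more of the Isotype mean from 1 library, 65, 68 and 64 of them from A, B and C. No library stood apart in these counts. Uncalled genes of matched level also had many: between 1 and 10 RPKM the share was 62.9% of 795 uncalled genes with a larger mean in Combo, against 63.9% of 219 called higher, and 77.9% of 788 uncalled genes with a larger mean in Isotype, against 85.5% of 159 called lower. At least 10 reads in each library of the larger group stood behind 71 of the 272 genes called higher and 11 of the 234 called lower.

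Genes with even reads are those whose level in the larger group each split of its pool shows. Ndufc2, a subunit of respiratory complex I, had 436, 1212 and 817 reads in Combo libraries A, B and C, or 23.5, 50.2 and 25.5 RPKM, and a log2 fold change of 7.42 ± 1.46 (FDR = 0.00042) in the authors' deposited table. Etaa1, an activator of the replication stress kinase ATR, had 283, 412 and 490 Combo reads, with 8.61 ± 1.92 (FDR = 0.00196) as the log2 fold change in the authors' deposited table. Rnf11, a ubiquitin ligase subunit, had 408, 438 and 292 Combo reads and a log2 fold change of 7.80 ± 2.0 (FDR = 0.00907) in the authors' deposited table. In these 3 genes the libraries lie within a few-fold of each other. Fam166a had 160, 325 and 218 reads in Combo and 0, 0 and 0 in Isotype. Its Combo mean of 6.46 RPKM is at least 174-fold higher than the level of 3 reads over the Isotype group. Of genes called lower, Flot2, a lipid raft scaffold protein, had 443, 215 and 1128 reads in Isotype and -6.81 ± 1.55 (FDR = 0.00245) as its log2 fold change in the authors' deposited table. Lyrm1 had 166, 129 and 165 Isotype reads, and Sfrp2, a secreted antagonist of Wnt signalling, had 235, 182 and 133. Sfrp2 lost its call under either centring and Lyrm1 with genes of 5 RPKM or more at 0. Isotype reads of Ndufc2, Etaa1 and Rnf11 are not known. Against the same Isotype libraries, Ndufc2 and Etaa1 were also called higher after anti-CTLA-4 alone, at 6.52 and 7.76, in the authors' deposited table. After anti-PD-1 DANA alone both were called higher too, at 6.92 and 7.48. Lyrm1 was also called lower after anti-CTLA-4 alone, at -7.40. Rnf11, Fam166a, Flot2 and Sfrp2 were not called after either antibody alone. All genes of this paragraph were named after their reads were seen.

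**Figure D2:**
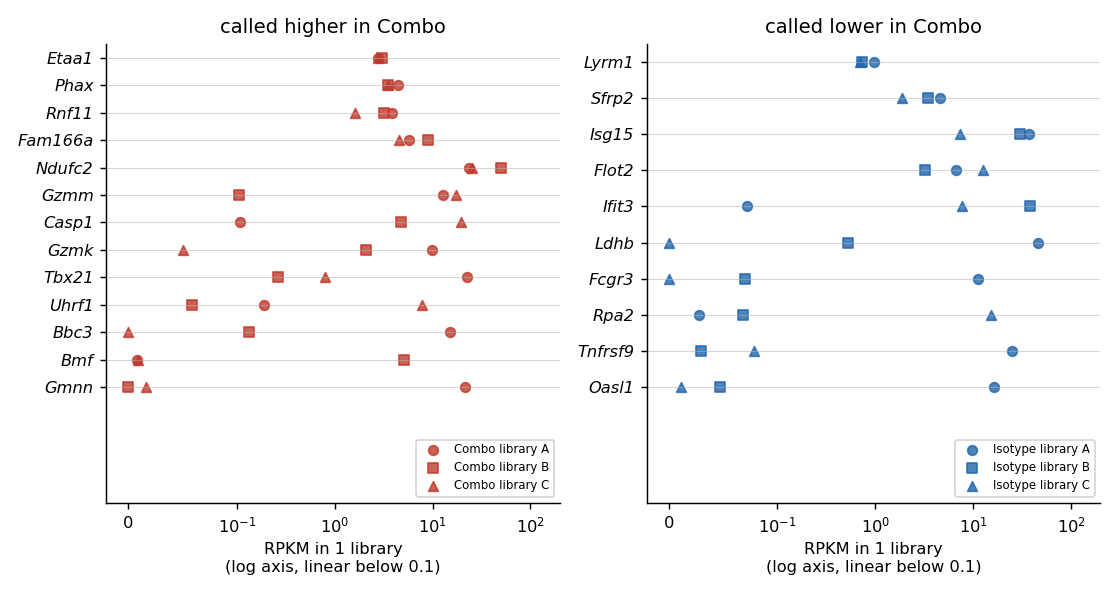
RPKM in each library of the larger group for 13 genes called higher (Combo libraries, left) and 10 called lower (Isotype libraries, right) whose reads could be recovered. The axis is logarithmic and linear below 0.1 RPKM; genes at the top have similar values in the 3 libraries, and those at the bottom have nearly all of their reads in 1.

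The mitochondrial genome encodes 13 proteins, all subunits of the respiratory chain or of ATP synthase. In Combo 10 of the 13 were called lower and none higher in the authors' deposited table, and the median log2 fold change was -1.38. They are among the most abundant transcripts of these cells, so their errors are small. mt-Atp8, an ATP synthase subunit, stood at 4222 RPKM in Isotype and had a log2 fold change of -3.13 ± 0.38 (FDR = 5.41e-12) in the authors' deposited table. mt-Nd5, a complex I subunit, stood at 1486 RPKM in Isotype with -2.66 ± 0.33 (FDR = 2.7e-11), and mt-Cytb, the complex III cytochrome, at 5684 RPKM with -2.61 ± 0.33 (FDR = 3.97e-11) in the authors' deposited table. The complex IV subunit gene mt-Co1, at 15889 RPKM, had -2.01 ± 0.32 (FDR = 2.16e-06) in the authors' deposited table. Log2 fold changes of the other called members, the complex I genes mt-Nd4l, mt-Nd4, mt-Nd1 and mt-Nd2 and the genes mt-Co2 and mt-Atp6, were -2.49, -1.95, -1.38, -1.37, -1.36 and -1.24 in the authors' deposited table.

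The 13 genes were not shifted by a common amount. mt-Co3 was at -0.83 ± 0.33 (FDR = 0.208) and mt-Nd6, which lies on the opposite strand from the rest, at -1.05 ± 0.36 (FDR = 0.0953), while mt-Nd3 was at 0.74 ± 0.39 (FDR = 0.642) in the authors' deposited table. mt-Atp8 and mt-Atp6 share bases at 7927 to 7969 of the mitochondrial sequence and are made from a joint transcript, yet their log2 fold changes in the authors' deposited table were -3.13 and -1.24. With the median tested gene moved to 0, 6 of 13 were called lower (mt-Atp8, mt-Nd5, mt-Cytb, mt-Nd4l, mt-Co1 and mt-Nd4), and with genes of 5 RPKM or more at 0 the count was again 6, with mt-Nd3 called higher. Against the same Isotype libraries, 0 of 13 were called after anti-CTLA-4 (4.23% of all tested genes were called there) and 0 of 13 after anti-PD-1 DANA (3.75%), with medians of -0.31 and -0.26 in the authors' deposited tables. Whether Combo differs from either antibody alone was not tested here.

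**Figure D3:**
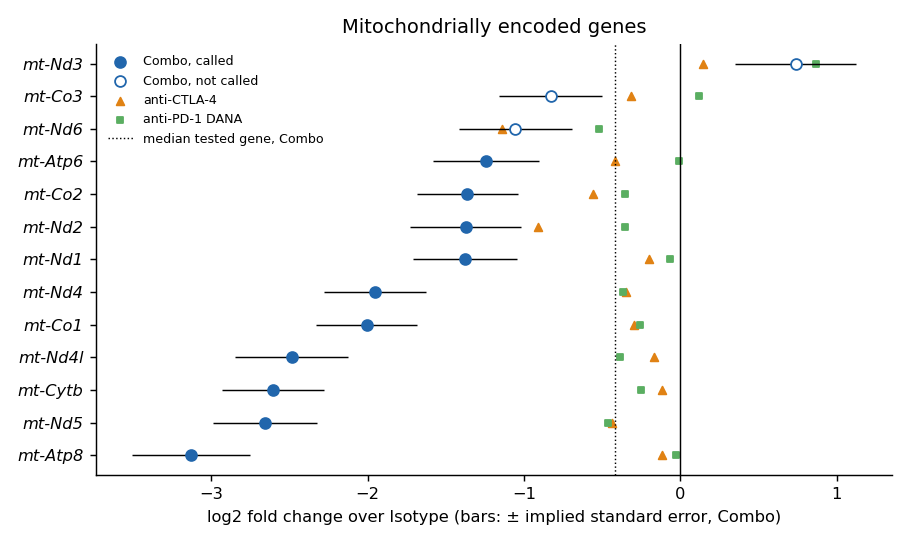
Log2 fold changes over Isotype of the 13 mitochondrially encoded genes in the authors' deposited tables, with the implied standard error for Combo. Filled circles are the 10 genes called lower in Combo and open circles the 3 not called; triangles and squares show anti-CTLA-4 and anti-PD-1 DANA alone, and the dotted line the median tested gene of Combo at -0.42.

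A list of nuclear genes of the same respiratory complexes did not follow. It left out Ndufc2 of complex I, called higher (7.42), and Atp5s, named for ATP synthase and called lower (-11.40), so its counts hold for the list only. Of its 70 tested genes, 1 was called higher and none lower, and their median log2 fold change was 0.07 in the authors' deposited table. The called gene, Atp5e, the epsilon subunit of ATP synthase, stood at 138 RPKM in Combo and at most 52.4 in Isotype, with a log2 fold change of 2.0 ± 0.60 (FDR = 0.0382) in the authors' deposited table. Proteins of the mitochondrial ribosome, which translates the 13 mitochondrial messages, had 7 of 77 genes called higher and 2 lower, with a median of 0.34 in the authors' deposited table. Called higher were Mrpl36, Mrpl48, Mrpl50, Mrpl3, Mrpl13, Mrps10 and Mrps18a, at 5.06 (Mrpl3) to 7.03 (Mrpl48), and lower Mrpl27 and Mrpl49, at -6.33 and -7.45, in the authors' deposited table. Reads of Mrpl27 in Isotype were 7, 7 and 881, and those of Mrpl50 in Combo 3, 80 and 1056, so each came mostly from the deepest library.

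Transcripts of the cytosolic ribosome lay above most genes. Of 83 ribosomal protein genes 72 had a log2 fold change above 0, with a median of 0.64 in the authors' deposited table, against -0.42 for all tested genes. Genes of like level and length lay nearer. The median level of the list was 383 RPKM. Other nuclear genes of 100 RPKM or more had a median of -0.08, and those of them with exon lengths up to 1500 bases 0.46. Rplp2, an acidic protein of the ribosomal stalk, was the 1 called, at 599 RPKM in Combo and at most 212 in Isotype, with a log2 fold change of 1.40 ± 0.37 (FDR = 0.0115) in the authors' deposited table. Its stalk partner Rplp1, at 4860 RPKM in Combo, was at 0.89 ± 0.34 (FDR = 0.177), and Rpl4 was at -1.10 ± 0.38 (FDR = 0.105) in the authors' deposited table. With the median tested gene at 0 the number called higher was 24, and with genes of 5 RPKM or more at 0 it was 45, with none lower. Medians of the same genes were -0.76 after anti-CTLA-4 and -0.18 after anti-PD-1 DANA in the authors' deposited tables.

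The change of abundant nuclear transcripts varied with their length. Among 265 nuclear genes of 100 RPKM or more, the median log2 fold change of Combo in the authors' deposited table was 0.78 for exon lengths up to 700 bases, 0.55 above 700 to 1500, 0.07 above 1500 to 3000, -0.23 above 3000 to 5000 and -0.58 beyond 5000 bases (11 genes). Spearman's rho across these genes, which share libraries and are not replicates, was -0.35 for Combo, -0.11 for anti-CTLA-4 and -0.30 for anti-PD-1 DANA. The order held without the 72 ribosomal protein genes among them: the other 193 had medians of 0.46 up to 1500 bases, -0.34 above 1500 to 3000 and -0.57 beyond. Ribosomal protein genes had a median of 0.69 in this set. Between 20 and 100 RPKM rho for Combo was -0.18 over 1435 genes, and the shortest class, at -0.73, did not lie above the rest. The part of length in any list was not tested, and this split was chosen after the data were seen.

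**Figure D4:**
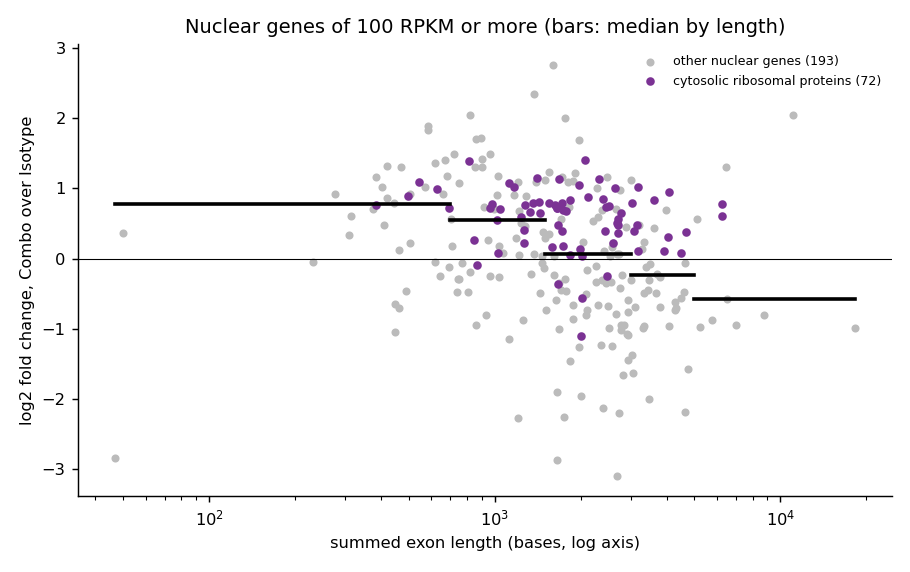
Summed exon length (bases, log axis) against the authors' log2 fold change of Combo over Isotype for 265 nuclear genes of 100 RPKM or more. Purple points are 72 cytosolic ribosomal protein genes, grey points the other 193, and black bars the median in each length class, which fall from 0.78 to -0.58.

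Lars2 and Gm15564 were abundant genes called higher. Lars2, which encodes the mitochondrial leucyl-tRNA synthetase, was the most abundant gene called higher, at 3323 RPKM in Combo and 745 in Isotype, with a log2 fold change of 2.04 ± 0.33 (FDR = 1.79e-06) in the authors' deposited table. Gm15564, an antisense locus on chromosome 16, was at 1416 RPKM in Combo and 317 in Isotype with 2.05 ± 0.39 (FDR = 0.000203), and Rn18s-rs5, an 18S rRNA-related locus, at 1199 and 505 RPKM with 1.16 ± 0.40 (FDR = 0.0946) in the authors' deposited table. All 3 had negative log2 fold changes after each antibody alone, from -1.46 to -2.57, in the authors' deposited tables. The abundant noncoding RNA Malat1, at 2506 RPKM in Isotype, was at -0.95 ± 0.33 (FDR = 0.102) in the authors' deposited table. Reads shared between near-identical rRNA-like copies make the level of each such locus uncertain. Lars2 moved as Gm15564 did (2.04 and 2.05), and whether the reads counted to Lars2 come from its own mRNA was not tested.

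Among cytotoxic genes, perforin and a pair of granzymes were called higher. Of 22 tested members 3 were called higher and none lower, and the median log2 fold change was 0.93, against -0.42 for all tested genes, in the authors' deposited table. Against the same Isotype libraries the list had a median of 1.05 and 1 called gene after anti-CTLA-4, and a median of 0.74 and 3 called genes after anti-PD-1 DANA, in the authors' deposited tables. Prf1, which encodes perforin, the pore-forming protein of cytotoxic granules, was at 6.09 RPKM in Combo and had a log2 fold change of 5.34 ± 1.33 (FDR = 0.00695) in the authors' deposited table. Gzmk, a granzyme of memory-like effector cells, had 341, 93 and 3 Combo reads (9.98, 2.09 and 0.0508 RPKM), and 6.60 ± 2.01 (FDR = 0.0414) as its log2 fold change in the authors' deposited table. Gzmm, another granule protease, had 462, 5 and 1085 Combo reads, and its log2 fold change was 6.77 ± 1.96 (FDR = 0.0265) in the authors' deposited table. Each granzyme was thus near absent from 1 of the Combo libraries and present in the others.

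Other killer genes were not called. Of the 22 tested members of the list 13 lay above 0 and 9 below, the lowest at -3.06, in the authors' deposited table. Gzmb, Klrg1, Nkg7 and Ctsw, given next, are among those above 0. Gzmb was at 5.78 ± 2.28 (FDR = 0.203) and Klrg1, a receptor of terminal effector cells, at 9.62 ± 3.22 (FDR = 0.0798) in the authors' deposited table, with 293, 0 and 0 Klrg1 reads in the Combo libraries. The abundant granule genes Nkg7, at 599 RPKM, and Ctsw, at 233 RPKM in Combo, were at 0.74 and 1.11 and were not called in the authors' deposited table. Tbx21, the effector transcription factor T-bet, had 1385, 21 and 84 Combo reads (22.6, 0.264 and 0.793 RPKM) and a log2 fold change of 6.97 ± 1.52 (FDR = 0.00162) in the authors' deposited table. A single Combo library thus gave 95.5% of the T-bet level. Ets1, a transcription factor of resting lymphocytes, was at 24.9 RPKM in Isotype and was called lower at -1.90 ± 0.51 (FDR = 0.0141) in the authors' deposited table, but the call was lost with the median tested gene at 0. Those were the 2 called of 30 effector and memory transcription factors. None of 14 cytokine and chemokine genes was called: Ifng, at 14.2 RPKM in Isotype, was at -0.42 ± 1.86 (FDR = 1) in the authors' deposited table.

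Genes of the interferon-gamma pathway leaned lower in Combo. Of 24 tested 2 were called lower and none higher, 20 lay below 0, and the median log2 fold change was -1.17 in the authors' deposited table, below that of all tested genes (-0.42) and of genes of 5 RPKM or more (-0.71). Much of that distance is shared by genes of like level. The list's median level was 15.9 RPKM, and all tested genes of 10 to 30 RPKM had a median of -0.95. The list's medians after anti-CTLA-4 and anti-PD-1 DANA alone, against the same Isotype libraries, were -1.07 and -1.12 in the authors' deposited tables. Irgm1, an immunity-related GTPase induced by interferon-gamma, stood at 28.8 RPKM in Isotype and had a log2 fold change of -4.93 ± 0.94 (FDR = 0.00024) in the authors' deposited table, called under either centring. Irf1, a transcription factor induced early by interferon-gamma, stood at 71.8 RPKM and had -2.22 ± 0.55 (FDR = 0.00664) in the authors' deposited table, but the call was lost with genes of 5 RPKM or more at 0. The receptor chains were not called, with Ifngr1 at 1.77 ± 0.89 (FDR = 0.549) and Ifngr2 at -3.23 ± 1.87 (FDR = 0.845) in the authors' deposited table. Jak1, a kinase of the receptor, was at -0.43 ± 0.51 and was not called in the authors' deposited table.

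Type I interferon-stimulated genes also leaned lower, with 4 of 35 called lower, none higher, and a median of -1.15 in the authors' deposited table. With the median tested gene at 0 the list had 2 called lower and 1 higher, and with genes of 5 RPKM or more at 0 it had 1 in each direction. After anti-CTLA-4 and anti-PD-1 DANA alone, against the same Isotype libraries, its medians were -1.33 and -0.77 in the authors' deposited tables. Isg15, a ubiquitin-like modifier, had 674, 557 and 182 reads in Isotype libraries A, B and C (37.2, 30.1 and 7.32 RPKM) and a log2 fold change of -5.93 ± 1.78 (FDR = 0.0361) in the authors' deposited table. Ifit3, an antiviral effector, had 3, 1643 and 439 Isotype reads and -7.41 ± 1.83 (FDR = 0.00629) in the authors' deposited table. Oasl1, a relative of the oligoadenylate synthetases, had 1027, 3 and 1 Isotype reads, with -7.03 ± 2.14 (FDR = 0.0414) in the authors' deposited table. Of these, Isg15 alone was well covered in each Isotype library, and its call and that of Oasl1 were lost with the median tested gene at 0, as was that of Ifih1 with genes of 5 RPKM or more at 0. Ifih1, the RNA sensor MDA5, was the other called member, at 1.41 RPKM and -7.17 ± 2.06 (FDR = 0.0253) in the authors' deposited table.

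The sequences before the transcription start of 4 of these 6 called interferon genes show which contain the elements through which interferons act. Each is the 250 bases before the start in RefSeq, build GRCm38.p6, written 5′ to 3′ on the strand of the gene. Capitals mark matches on either strand to the interferon-gamma-activated element GAS, searched as TTCNNNGAA, or to the core of the interferon-stimulated response element, searched as GAAANNGAAA, whose overlapping matches join into 1 run.
Isg15, chr4:156200819-156201068, minus strand: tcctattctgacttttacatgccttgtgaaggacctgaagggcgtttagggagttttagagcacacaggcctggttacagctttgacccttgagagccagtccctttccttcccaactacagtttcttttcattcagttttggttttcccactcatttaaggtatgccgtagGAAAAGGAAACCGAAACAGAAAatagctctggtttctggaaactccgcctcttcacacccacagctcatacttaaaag
Ifit3, chr19:34583279-34583528, plus strand: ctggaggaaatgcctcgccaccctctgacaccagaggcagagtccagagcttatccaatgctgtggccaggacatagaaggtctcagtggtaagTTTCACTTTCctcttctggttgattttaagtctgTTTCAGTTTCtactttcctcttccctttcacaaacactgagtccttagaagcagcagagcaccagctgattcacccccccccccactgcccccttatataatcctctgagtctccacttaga
Irgm1, chr11:48871421-48871670, minus strand: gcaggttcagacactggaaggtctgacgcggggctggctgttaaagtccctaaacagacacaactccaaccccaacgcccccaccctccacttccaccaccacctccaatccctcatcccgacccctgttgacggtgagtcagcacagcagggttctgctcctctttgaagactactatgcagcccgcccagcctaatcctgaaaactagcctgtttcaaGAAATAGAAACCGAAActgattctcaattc
Irf1, chr11:53769764-53770013, plus strand: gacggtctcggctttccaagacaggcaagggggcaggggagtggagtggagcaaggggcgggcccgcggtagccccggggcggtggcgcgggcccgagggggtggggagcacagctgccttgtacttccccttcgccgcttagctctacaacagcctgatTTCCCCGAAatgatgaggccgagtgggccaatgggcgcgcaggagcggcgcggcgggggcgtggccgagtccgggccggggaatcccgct
Isg15 holds 3 overlapping response-element cores, from 78 to 57 bases before the start, Ifit3 holds 2, at 156 and 122 bases before it, and Irgm1 holds 2 overlapping cores from 30 to 15 bases before it. The printed Irf1 window holds a GAS element 90 to 82 bases before that start. RefSeq gives Irf1 another start, whose window (chr11:53770223-53770472) matched neither motif. The windows of Ifih1 and Oasl1 matched neither motif. Of all 32851 windows of this length 2.98% hold the response-element core and 7.02% the GAS element. Among 549 windows of genes called lower in Combo the shares were 2.91% and 6.38%, and among 667 windows of genes called higher 2.25% and 6.45%. Among 53 windows of all tested interferon-list genes, called or not, the shares were 35.8% and 26.4%. Among the 7 windows of those called lower they were 42.9% and 14.3%. The matches thus go with membership of the interferon lists, and a tie to the calls was not tested.

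Interferon-gamma also raises antigen processing through MHC class I, where 1 of 16 genes was called higher and 2 lower. Tap1, a peptide transporter, was called lower, at 53.9 RPKM in Isotype and -2.26 ± 0.52 (FDR = 0.00278, but not called with genes of 5 RPKM or more at 0), and its divergent neighbour Psmb9, an immunoproteasome subunit, was called higher, at 42.1 RPKM in Combo and 2.65 ± 0.81 (FDR = 0.0404), in the authors' deposited table. The deposited regions of Tap1 (chromosome 17, 34187553 to 34197225) and Psmb9 (34181988 to 34187764) overlap, and reads from the overlap cannot be told apart without strand. H2-D1, a class I heavy chain, was at 685 RPKM in Isotype and called lower at -1.25 ± 0.34 (FDR = 0.0148) in the authors' deposited table, but the call was lost under either centring. Other members were not called, with Psmb8 at -0.12, Psmb10 at 0.56, H2-K1 at -0.75 and B2m at -0.95 in the authors' deposited table.

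Genes of cell death were called in both directions, as were tested genes at large (3.94% higher and 3.59% lower). Of 26 death receptor and caspase genes 2 were called higher and 2 lower, with a median of -0.78 in the authors' deposited table. Casp1, the inflammatory caspase that matures interleukin-1, had 4, 226 and 1252 Combo reads (0.109, 4.72 and 19.7 RPKM) and at most 0.107 RPKM in Isotype, with a log2 fold change of 8.52 ± 2.09 (FDR = 0.00565) in the authors' deposited table. Casp6, an executioner caspase, was at 7.11 ± 1.94 (FDR = 0.0158) in the authors' deposited table. Lower were Dffb, the nuclease that cleaves DNA in apoptosis, at 16.9 RPKM in Isotype and -7.67 ± 1.83 (FDR = 0.0042), and Tradd, an adaptor of the TNF receptor, at 21.7 RPKM and -4.97 ± 1.42 (FDR = 0.0243), in the authors' deposited table. The death receptor Fas was at 1.02 ± 1.83 and its ligand Fasl, at 0.00702 RPKM in Isotype, at -0.55 ± 2.90 (FDR = 1 each) in the authors' deposited table. Combo reads of Casp1 thus came from libraries B and C, and library A was at the level of the Isotype limit. The call of Tradd was lost with genes of 5 RPKM or more at 0.

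Of 21 genes of the BCL2 family and inhibitors of apoptosis 4 were called higher and 1 lower, with a median of -0.06 in the authors' deposited table. Called higher were the BH3-only genes Bad, Bbc3 (PUMA) and Bmf, whose proteins oppose survival factors such as BCL2, and Birc5 (survivin), an inhibitor of apoptosis that also acts in mitosis. Bad was at 9.28 RPKM in Combo and at most 0.176 in Isotype, with a log2 fold change of 6.68 ± 1.82 (FDR = 0.0159) in the authors' deposited table. Bbc3 had 787, 9 and 0 Combo reads and Bmf 1, 857 and 2, with log2 fold changes of 7.24 ± 2.25 (FDR = 0.0474) and 8.32 ± 2.41 (FDR = 0.0269) in the authors' deposited table. The levels of Bbc3 and Bmf each came from 1 library, not the same one. Birc5 was at 5.82 RPKM in Combo, at most 0.0939 in Isotype, and 5.90 ± 1.81 (FDR = 0.0435) in the authors' deposited table. Birc6, a giant ubiquitin ligase that inhibits caspases, was called lower at -1.61 ± 0.46 (FDR = 0.0222) in the authors' deposited table, but the call was lost with the median tested gene at 0. Bcl2, at 31.3 RPKM in Isotype, was at -1.33 ± 0.48 (FDR = 0.132) in the authors' deposited table.

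Among 22 genes of p53 and the damage response 2 were called higher and none lower, with a median of 0.25 in the authors' deposited table. They were Gadd45b, a stress gene of growth arrest, at 7.37 RPKM in Combo and 6.91 ± 1.78 (FDR = 0.00904), and Plk3, a stress-activated polo-like kinase, at 9.14 RPKM in Combo, at most 0.226 in Isotype and 7.46 ± 1.89 (FDR = 0.00786), in the authors' deposited table. Trp53 itself was at -0.01 and Mdm2, its ubiquitin ligase and target, at 0.92 in the authors' deposited table, neither called.

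**Figure D5:**
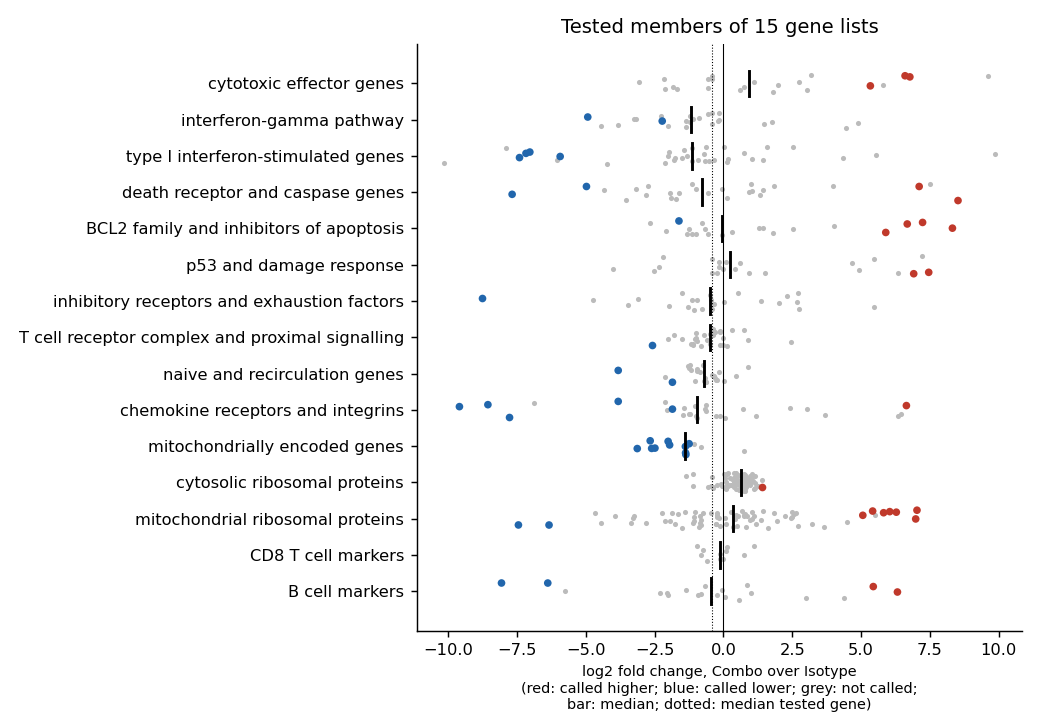
Log2 fold changes of Combo over Isotype in the authors' deposited table for the tested members of 15 gene lists, 1 point per gene, with red for called higher, blue for called lower and grey for not called. Black bars are medians and the dotted line is the median tested gene at -0.42; mitochondrially encoded genes lie to its left (median -1.38) and cytosolic ribosomal proteins to its right (median 0.64).

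The targets of the antibodies were not called. Pdcd1, which encodes PD-1, was at 18.4 RPKM in Isotype and -0.79 ± 1.47, and Ctla4, with 51, 2 and 263 Isotype reads, at -0.36 ± 2.10 (FDR = 1 each) in the authors' deposited table. Among inhibitory receptors and exhaustion factors 1 of 24 was called lower: Cd200r1, the receptor of CD200, at 13.2 RPKM in Isotype and -8.77 ± 1.98 (FDR = 0.00224) in the authors' deposited table. Lag3, a receptor for MHC class II, was at -0.96 ± 1.43 (FDR = 1) in the authors' deposited table. Of 21 costimulatory receptors and ligands 2 were called lower. Tnfrsf9 (4-1BB), which sustains activated CD8 T cells, had 1625, 2 and 7 Isotype reads and -7.42 ± 1.88 (FDR = 0.00778), and Slamf6, a homotypic receptor of progenitor-like T cells, was at 16.1 RPKM in Isotype and -3.40 ± 0.91 (FDR = 0.0134), in the authors' deposited table. Isotype library A gave nearly all of the Tnfrsf9 level, and the call of Slamf6 was lost with genes of 5 RPKM or more at 0.

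Cytokine receptors had 2 of 24 genes called in each direction, against 3.94% higher and 3.59% lower of all tested genes. Il2rg, the common gamma chain through which interleukins 2, 7 and 15 signal, was at 323 RPKM in Isotype and called lower at -2.12 ± 0.41 (FDR = 0.000306) in the authors' deposited table, also under either centring. Il6ra, the interleukin-6 receptor, was called lower at -3.16 ± 0.78 (FDR = 0.00629) in the authors' deposited table, but the call was lost with genes of 5 RPKM or more at 0. Called higher were Il12rb2, the signalling chain of the interleukin-12 receptor, at 4.6 RPKM in Combo, at most 0.01 in Isotype and 8.58 ± 2.23 (FDR = 0.0102), and Il18rap, a chain of the interleukin-18 receptor, at 7.97 RPKM and 5.04 ± 1.39 (FDR = 0.0178), in the authors' deposited table. Both cytokines support the production of interferon-gamma by T cells.

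Of 29 chemokine receptors and integrins, which direct homing, 5 were called lower and 1 higher, with a median of -0.94 in the authors' deposited table. Their median level was 11.6 RPKM, and all tested genes of 10 to 30 RPKM had a median of -0.95. The balance of calls depended on the centring. It was 3 lower and 2 higher with the median tested gene at 0, and 3 in each direction with genes of 5 RPKM or more at 0. Ccr6, a receptor for CCL20, was at 32.2 RPKM in Isotype and -8.55 ± 1.71 (FDR = 0.000453), and Ccr9, the gut-homing receptor, at 21.0 RPKM and -3.82 ± 0.90 (FDR = 0.00392), in the authors' deposited table. Ccr8 was at -7.77 ± 2.41 (FDR = 0.0467, a call lost under either centring) and Itga2, an integrin chain for collagen also found on NK cells, at -9.59 ± 2.24 (FDR = 0.00352) in the authors' deposited table. Ccr2, an inflammatory homing receptor, was called higher at 1.67 RPKM in Combo and 6.65 ± 1.79 (FDR = 0.0142) in the authors' deposited table. Ccr9 was also among the 2 called, both lower, of 25 naive and recirculation genes, whose median of -0.70 lies at that of genes of 5 RPKM or more. Tcf7, a transcription factor of naive and memory cells, was at 0.03 in the authors' deposited table.

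Signalling genes of the T cell receptor had few calls, where 7.53% of all tested genes were called in either direction. Of 32 tested 1 was called lower, Rasgrp1, which links the receptor to Ras, at 41.6 RPKM in Isotype and -2.59 ± 0.79 (FDR = 0.0416) in the authors' deposited table. Of 29 negative regulators 2 were called lower, the phosphatases Dusp2, at 123 RPKM and -1.95 ± 0.58 (FDR = 0.0359), and Ptpn6 (SHP-1), at 109 RPKM and -1.65 ± 0.46 (FDR = 0.0211), in the authors' deposited table. All 3 calls were lost with the median tested gene at 0. Immediate early genes had 2 of 27 called lower, Dusp2 and Fosb, an AP-1 subunit, at -7.82 ± 2.17 (FDR = 0.0185) in the authors' deposited table.

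Of 59 proliferation genes 3 were called higher and 2 lower, with a median of -0.17 in the authors' deposited table. Over all tested genes 3.94% were called higher and 3.59% lower. Mki67, the marker of cycling cells, was at 1.33 RPKM in Combo, at most 0.166 in Isotype and 9.54 ± 2.30 (FDR = 0.00483), while Cdc45, a factor of the replication helicase, was at 24.1 RPKM in Isotype and -8.70 ± 1.73 (FDR = 0.000453), in the authors' deposited table. Gmnn, an inhibitor of replication licensing, had 769, 0 and 1 Combo reads and Rpa2, a subunit of the single-strand binding complex, had 2, 5 and 1508 Isotype reads, with 7.43 ± 2.12 (FDR = 0.0235) and -6.07 ± 1.65 (FDR = 0.0155) in the authors' deposited table. Birc5, described above, was the third called higher. Of 38 chromatin and DNA methylation genes 2 were called higher, the methyltransferase gene Dnmt3b at 7.0 ± 1.92 (FDR = 0.0169) and Uhrf1, with 20, 8 and 1425 Combo reads, at 6.86 ± 1.92 (FDR = 0.02), in the authors' deposited table.

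Lists of metabolism and cell maintenance held 0 to 2 called genes each, against 7.53% called over all tested genes. Ldhb, a lactate dehydrogenase subunit with 1723, 20 and 0 Isotype reads, was the 1 of 21 glycolysis genes called, at -7.77 ± 1.97 (FDR = 0.00793) in the authors' deposited table. Of 45 nutrient genes Hadha, which oxidises fatty acids, was called higher at 4.70 ± 1.40 (FDR = 0.0346) and Prkaa1, a catalytic subunit of the energy sensor AMPK, lower at -5.57 ± 1.59 (FDR = 0.0235) in the authors' deposited table. With genes of 5 RPKM or more at 0, Prkaa1 was no longer called. The autophagy genes Atg3, a conjugating enzyme, and Ulk1, the initiating kinase, were called higher at 5.56 ± 1.18 (FDR = 0.00114) and 7.31 ± 2.06 (FDR = 0.0215) in the authors' deposited table, 2 of 28. Of 35 ubiquitin and proteasome genes 1 was called, the proteasome subunit Psmd1 at 5.12 ± 1.48 (FDR = 0.0269) in the authors' deposited table. Xbp1, a transcription factor of the unfolded protein response, was called lower at -5.13 ± 1.52 (FDR = 0.0323) in the authors' deposited table, the 1 of 31 in its list, and lost its call under either centring. The actin genes Actr3, of the Arp2/3 complex, at 109 RPKM and -2.19 ± 0.47 (FDR = 0.00125), and Dock2, which activates Rac, at -2.18 ± 0.58 (FDR = 0.0119), and the splicing genes Hnrnpf and Sf3b1, at -1.62 and -1.75 in the authors' deposited table, were called lower, 2 of 37 and 2 of 35. With the median tested gene at 0, Actr3 was the 1 of these 4 still called. None of 35 translation factors, 8 GIMAP genes or 11 MHC class II genes was called.

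Some of the strongest calls lay outside these lists. Tmem147, a membrane protein of the endoplasmic reticulum, was at 82.7 RPKM in Combo and at most 18.8 in Isotype, with a log2 fold change of 7.17 ± 1.12 (FDR = 1.13e-06) in the authors' deposited table. Atg101, a partner of the autophagy kinase ULK1, was at 60.9 RPKM in Combo and at most 10.6 in Isotype, with 5.75 ± 1.26 (FDR = 0.00162) in the authors' deposited table. Map2k2 (MEK2), a kinase of the ERK pathway, had a log2 fold change of 4.65 ± 0.93 (FDR = 0.000453) in the authors' deposited table. Precise changes of lesser size were those of S100a6, a calcium-binding protein at 96.9 RPKM in Combo (3.04 ± 0.94), Psd4 (2.74 ± 0.73) and the phosphatase gene Ptpn18 (2.11 ± 0.55) in the authors' deposited table. AI413582 was also called higher, at 82.2 RPKM and 4.74 ± 1.02 (FDR = 0.00131) in the authors' deposited table.

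The largest upward values among called genes of 5 RPKM or more were those of Hopxos (11.16), Neurl2 (10.95), Hist1h4j (10.85), Fam166a (10.56), Mfsd12 (10.33) and Cptp (10.32) in the authors' deposited table. Next came Hist1h4n, Prg3, Tm7sf2, Cenpm, Tssk6 and Nmnat3, the last at 9.19 in the authors' deposited table. The largest downward values were those of Trim34b (-12.70), Apol7b (-11.88), Atp5s (-11.40), Olfr262 (-11.36), Hist1h4b (-10.82), Col9a3 (-10.69), Srp54a (-10.51), Olfr1450 (-10.29), Fbxl15 (-10.25), Tmem216 (-10.14), Atxn7l1os2 (-10.12) and As3mt (-9.78) in the authors' deposited table. Where reads are known these rest on a single library, except for Fam166a: Hopxos had 850, 3 and 1 Combo reads, Neurl2 734, 0 and 0, Tssk6 1, 0 and 1354, and Trim34b 1, 46 and 2008 Isotype reads. The Combo mean of Hist1h4j, from 0, 825 and 0 reads, is at least 206-fold higher than 3 reads over the Isotype group, whose libraries had 0. Trim34b, Srp54a, the histone H4 genes and the olfactory receptor genes have near-identical copies, and Hopxos and Atxn7l1os2 are antisense to other genes, so reads may have been assigned to the wrong member. Hist1h4b lost its call under either centring.

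T cell receptor segments differ between T cell clones. Many uncalled genes also rest on 1 library, as given above, and whether uneven segment reads mirror clones was not tested. Of 111 tested alpha variable segments 2 were called higher and 9 lower, and of 23 beta variable segments 5 were called lower, whereas none of 50 alpha joining and 13 beta joining segments was called in the authors' deposited table. Reads of Trbv15 in Isotype were 1327, 4 and 3, those of Trbv19 were 1382, 3 and 3, and those of Trbv14 were 2, 865 and 77. Their log2 fold changes were -7.64 ± 1.82 (FDR = 0.0042), -7.43 ± 1.75 (FDR = 0.00386) and -8.39 ± 1.83 (FDR = 0.00154) in the authors' deposited table. Trbv26 and Trbv31 likewise had 422, 2 and 2 and 433, 1 and 1 Isotype reads. Isotype library A thus held 4 of the 5 called beta segments and library B the fifth. Of the alpha segments called higher, Trav12n-3 had 0, 0 and 1403 Combo reads and 0 in each Isotype library, at least 263-fold higher than 3 reads over the Isotype group, and Trav9-4 had 0, 8 and 633 Combo reads. Trav12-3, of the same family by name as Trav12n-3, was called lower at -7.58 (FDR = 0.0151) in the authors' deposited table, with 0, 1 and 919 Isotype reads. Whether reads were assigned to the wrong one of these segments was not tested. Trav17 (2, 546 and 1) and Trav6-7-dv9 (2, 0 and 691) show the same pattern in Isotype. Trav4d-4 and Trav4n-4, near-identical copies, had 1, 157 and 173 and 0, 197 and 164 Isotype reads, so reads of either may belong to the other. With genes of 5 RPKM or more at 0 their calls and that of Trbv31 were lost.

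RNA of other cell types was present, and that of B cell genes in both groups. Of 20 B cell markers 2 were called higher and 2 lower, with a median of -0.44 in the authors' deposited table, and their larger means summed to 460 RPKM, against 2274 for the 11 CD8 T cell markers. Cd79a stood at 29.2 and Ms4a1 at 1.03 RPKM in Combo, and Igkc at 90.2 RPKM in Isotype, none called. Called higher were Ly6d, with 1, 2 and 1590 Combo reads, and Fcer2a, with 71, 346 and 11, at 6.32 ± 1.71 (FDR = 0.0151) and 5.44 ± 1.69 (FDR = 0.0467), and lower were Blnk and Cd22, at -8.06 ± 1.83 (FDR = 0.00233) and -6.38 ± 1.69 (FDR = 0.0123), in the authors' deposited table. Of 12 macrophage and monocyte markers, whose larger means summed to 76.2 RPKM, 3 were called lower. Lyz2, lysozyme of myeloid cells, was at 49.1 RPKM in Isotype and -4.26 ± 1.17 (FDR = 0.0169) in the authors' deposited table. The Fc receptor gene Fcgr3 had 467, 3 and 0 Isotype reads and the phosphatidylserine receptor gene Timd4 1, 1215 and 0, with -7.63 ± 2.25 (FDR = 0.0321) and -7.58 ± 2.13 (FDR = 0.0212) in the authors' deposited table. With genes of 5 RPKM or more at 0, Lyz2 and Fcgr3 lost their calls and 1 marker of the list was called lower. Ccr2 is also a monocyte marker and was called higher. Itga2 was the 1 called of 6 NK cell markers, and none was called among CD4 and regulatory T cell, plasma cell, dendritic cell, neutrophil, erythroid, stromal or epithelial markers. Sums per group cannot be had, because only the larger mean of each gene is listed. The part of these cells in the interferon, homing or death genes named above was not tested.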

How the data were processed

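The labels describe RNA-seq of 0.25 ng RNA per library with 21 cycles of preamplification, and, per the labels' protocols, analysis with CLC Genomics Workbench. Per the submitters' processing notes the build was GRCm38.p5. Not given in the sources used here are the program's version, its statistical model, the annotation release and the library scaling. Per the file headers, the authors deposited for each comparison the larger group mean in RPKM, the fold change both as log2 and as a signed score without values between -1 and 1, and a p-value with its Bonferroni and false discovery rate adjustments. The deposited tables hold no value per library.

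The authors' calls at a false discovery rate under 0.05 were used as they stand. Standard errors were obtained by dividing the size of each log2 fold change by the normal quantile that its p-value implies. Reads per library were recovered from means whose whole-read solution was unique, 75.4% of those tried in Combo and 74.5% in Isotype. With the exon length set wrong by 1 base, 3.8% of those tried in Combo and 4.2% in Isotype still had a solution. Some of the recovered reads may therefore be wrong. Means of too many reads for a unique solution were not tried, 2288 in Combo and 3571 in Isotype. Known reads are therefore weighted to genes with fewer reads. Library totals were recovered likewise, at 23973359 to 42556869 reads. Symbols were matched to GENCODE M21 for exon length (99.3% of genes). The scripts (Python 3.11.15, pandas 2.3.3, numpy 2.4.6, scipy 1.17.1, numba 0.67.0, matplotlib 3.10.9) were tested on simulated data.

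The comparison and its 42 gene lists were chosen with earlier results of these data known. Named genes are called list members, the 12 largest called changes of each sign at 5 RPKM or more, the 10 called genes of each sign with the highest level or smallest error, without predicted loci, pseudogenes and receptor segments, and 10 genes named always (Pdcd1, Ctla4, Ifng, Ifngr1, Ifngr2, Fas, Fasl, Bcl2, Cd8a and Cd3e); other named genes were chosen after their values were seen. Alternatives changed the adjustment, threshold, level filter and centring.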

Additional observations from a re-analysis of the deposited data

Results flagged for a closer look

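Genes without a fold change were left out of the comparison, and 953 of them had a larger mean above the level of 3 reads. Most, 692, were processed pseudogenes, and 18 were mitochondrial tRNA genes. Gm12896 had 1470, 1587 and 2229 reads in the Combo libraries and 290, 514 and 666 in the Isotype libraries. The small nuclear RNA gene Gm24265 had 782, 1236 and 1768 reads in Combo and 664, 438 and 546 in Isotype. The mitochondrial rRNA genes mt-Rnr2 and mt-Rnr1 had larger means of 17360 and 6013 RPKM, and which group these belong to could not be found. None of these differences was tested.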

How the results depend on the processing

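The count of called genes, 1343 in the authors' table, was 2238 with adjustment over tested genes only, 560 at a false discovery rate under 0.01, 74 by Bonferroni and 777 at 5 RPKM or more. The share of called genes higher in Combo, 52.3%, was 37.8% by Bonferroni and 42.5% at 5 RPKM or more, so that most were then lower. It was 66.2% with the median tested gene at 0, 74.0% with genes of 5 RPKM or more at 0, and 55.6% on the scale of RPKM. The last was chosen after the data were seen. The median log2 fold change was -0.42 over tested genes, -0.71 at 5 RPKM or more and -0.053 over genes with a mean above 0. Of 122 named genes, 19 lost their call with the median tested gene at 0 and 28 with genes of 5 RPKM or more at 0. Uncalled genes changed sign under these centrings: Cd8a to 0.30 and 0.58, Ctla4 to 0.062 and 0.35, and, with genes of 5 RPKM or more at 0, Fasl to 0.16 and Ifng to 0.28. Removing called genes known to rest on 1 library left 969 called, but reads were known for only 272 of the genes called higher and 234 of those called lower. No paired analysis was possible because the tables hold no value per library and the recovered libraries cannot be tied to replicate numbers. Leaving out a library was not run for the same reason.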
